A study of Mus musculus with 24 samples.

Results

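The 6 chemokine receptors Cxcr3, Cxcr4, Cxcr6, Ccr2, Ccr4 and Ccr8 were followed across all 24 arrays, out of 20022 genes named on the array. They were chosen by name, as receptors that effector T cells can carry. Naive CD4+ T cells (CD62L+ CD25- CD44lo, from lymph nodes and spleens of female C57BL/6 mice) had been differentiated in vitro into Th1 or Th2 cells. These were then left unstimulated or reactivated, with DMSO, JQ1 at 50 or 500 nM, or flavopiridol at 1 or 10 µM. JQ1 occupies the acetyl-lysine pockets of BET bromodomain proteins, which bind acetylated histones, and flavopiridol inhibits the kinase of P-TEFb, the factor that releases paused RNA polymerase II. Cells were treated for 6 hr, and a 24 hr set existed for Th1 cells under DMSO and under the higher JQ1 dose. For Th2 cells with DMSO the labels contradict each other on the time, which is therefore unclear. Each condition has 1 array, and how many mice or cultures stand behind it was not given in the sources used here.

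Chemokine receptors are membrane proteins that couple to inhibitory G proteins and direct cells along gradients of chemokines. Cxcr3, which binds Cxcl9, Cxcl10 and Cxcl11, is the classical receptor of Th1 cells and a target of the Th1 factor T-bet, whereas Ccr4 (binding Ccl17 and Ccl22) and Ccr8 (binding Ccl1) are associated with Th2 cells. Cxcr6 binds the membrane-anchored chemokine Cxcl16, Ccr2 binds Ccl2 and related chemokines, and Cxcr4 binds Cxcl12, a homing signal of bone marrow and lymphoid tissue.

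Each level below is a log2 ratio of the sample, labelled with Cy3, over naive CD4+ T cells labelled with Cy5 on the same array, so that 0 is the naive level and 1 is a 2-fold higher level. Whether the naive RNA was 1 pool for all arrays was not given in the sources used here. No array had its dyes swapped, and a dye bias of a probe would therefore sit in its level but cancel in differences between arrays. In bulk RNA, fewer cells of a type and less RNA per cell cannot be told apart. Because no condition was repeated, the 4 combinations of cell type and state (contexts), pairs of arrays, or matched conditions stood in for replicates. The p-values therefore measure the spread over those and not over independent cultures. Differences were called at a Benjamini-Hochberg adjusted p below 0.05 in limma, and each is given with its standard error (SE).

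The 24 arrays lay on 3 slides. Th1 cells at 6 hr with DMSO or JQ1 and Th2 cells with DMSO shared one slide, and the 24 hr Th1 arrays shared another, so the JQ1 effect in Th1 cells, reactivation, and DMSO-treated Th1 against Th2 cells were measured within slides. Th2 cells with JQ1, and all flavopiridol samples, were on other slides than the DMSO arrays of their own cell type at 6 hr, and for these slide and drug cannot be told apart. In 8 of the 10 matched conditions, those with a drug, Th1 and Th2 cells were also on different slides, and there slide and cell type cannot be told apart. Between 35.45 and 52.04% of probes were above background in Cy3 as called by the scanner software, and the 8 flavopiridol arrays held the low end, at 35.45 to 41.53%. All 6 CD4 T cell markers on the array were above background on all 24 arrays. The mean log2 Cy3 signal of the 5 Th1 markers was 10.04 to 12.32 on the 14 Th1 arrays and 6.96 to 9.01 on the 10 Th2 arrays. The 5 B cell markers averaged 6.63 to 7.78 in Th1 and 7.58 to 8.82 in Th2 arrays on the same scale, with 1 of 5 above background on all arrays. Ms4a1, which encodes the B cell protein CD20, had a log2 ratio of 4.03 in unstimulated and 3.84 in reactivated Th2 cells with DMSO, against 1.71 and 1.61 in Th1 cells. Of 5 myeloid markers 2 (Itgam and Csf1r) were above background on all arrays and 1 (Lyz2) on none, and of 4 NK cell markers none was above background on all arrays and 1 (Klrb1c) on none, while Eomes was on 18.

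The 6 receptors had 8 probes. Cxcr3, Cxcr4, Ccr2 and Ccr4 had 1 probe each, and Cxcr6 and Ccr8 had 2, of which the brighter was used. Both Cxcr6 probes gave nearly the same log2 ratios, with a largest gap of 0.28 on any array, while the second Ccr8 probe was above background on 4 arrays and differed from the first by up to 0.84. Naive cells had Cxcr3, Cxcr4, Cxcr6 and Ccr8 above background on all 24 arrays and Ccr4 on 21. Ccr2 was not above background in naive cells on any array, so its ratios understate how far it lay above the naive level.

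The 250 bases upstream of the annotated gene start are printed for the 3 CXC receptors, because each stands for one of the contrasts that follow: Cxcr3 for JQ1 and Th1 against Th2 cells, Cxcr4 for reactivation, and Cxcr6 for flavopiridol. They are RefSeq sequences of the GRCm38.p6 build, written on the strand of the gene, and capitals mark matches to the motifs searched on both strands. The Cxcr3 stretch lies at chrX:101734148-101734397 on the minus strand, the Cxcr4 stretch at chr1:128592300-128592549 on the minus strand, and the Cxcr6 stretch at chr9:123806227-123806476 on the plus strand.
Cxcr3: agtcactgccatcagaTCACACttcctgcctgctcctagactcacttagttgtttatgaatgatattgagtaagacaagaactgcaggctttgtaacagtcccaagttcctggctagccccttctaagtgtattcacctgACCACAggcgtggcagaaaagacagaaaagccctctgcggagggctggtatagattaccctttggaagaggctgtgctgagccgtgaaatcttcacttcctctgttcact
Cxcr4: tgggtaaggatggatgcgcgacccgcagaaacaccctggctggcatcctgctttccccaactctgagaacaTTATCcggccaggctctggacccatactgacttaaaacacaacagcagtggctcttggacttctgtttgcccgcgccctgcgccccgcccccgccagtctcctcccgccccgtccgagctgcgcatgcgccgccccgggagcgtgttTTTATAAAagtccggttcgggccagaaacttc
Cxcr6: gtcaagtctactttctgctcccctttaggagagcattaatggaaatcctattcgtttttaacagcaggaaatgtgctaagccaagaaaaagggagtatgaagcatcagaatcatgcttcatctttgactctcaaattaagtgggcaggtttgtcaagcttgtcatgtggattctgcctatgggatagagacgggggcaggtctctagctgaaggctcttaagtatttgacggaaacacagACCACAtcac
The T-box core GTGTGA, the letters read by T-bet and its relatives, was found in 1 of the 6 receptor promoters, starting 234 bases upstream of Cxcr3, and in 12.3% of 32851 promoters of the same length. The Runx letters TGTGGT were found 110 bases upstream of Cxcr3 and 10 bases upstream of Cxcr6, that is in 2 of 6, against 14% of all promoters. GATAA, read by GATA factors, was found in 3 of 6 (Cxcr4, Ccr2 and Ccr8) against 22.6%. The AP-1 letters TGANTCA were found in Ccr4 alone among the 6 (6.75% of all promoters), TTCNNNGAA of STAT factors in none of the 6 (7.02%), and TATAAA in Cxcr4 alone (12.4%), where matches at 32 and 30 bases upstream on opposite strands overlap. These matches describe the letters in the window and not binding.

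**Figure D1:**
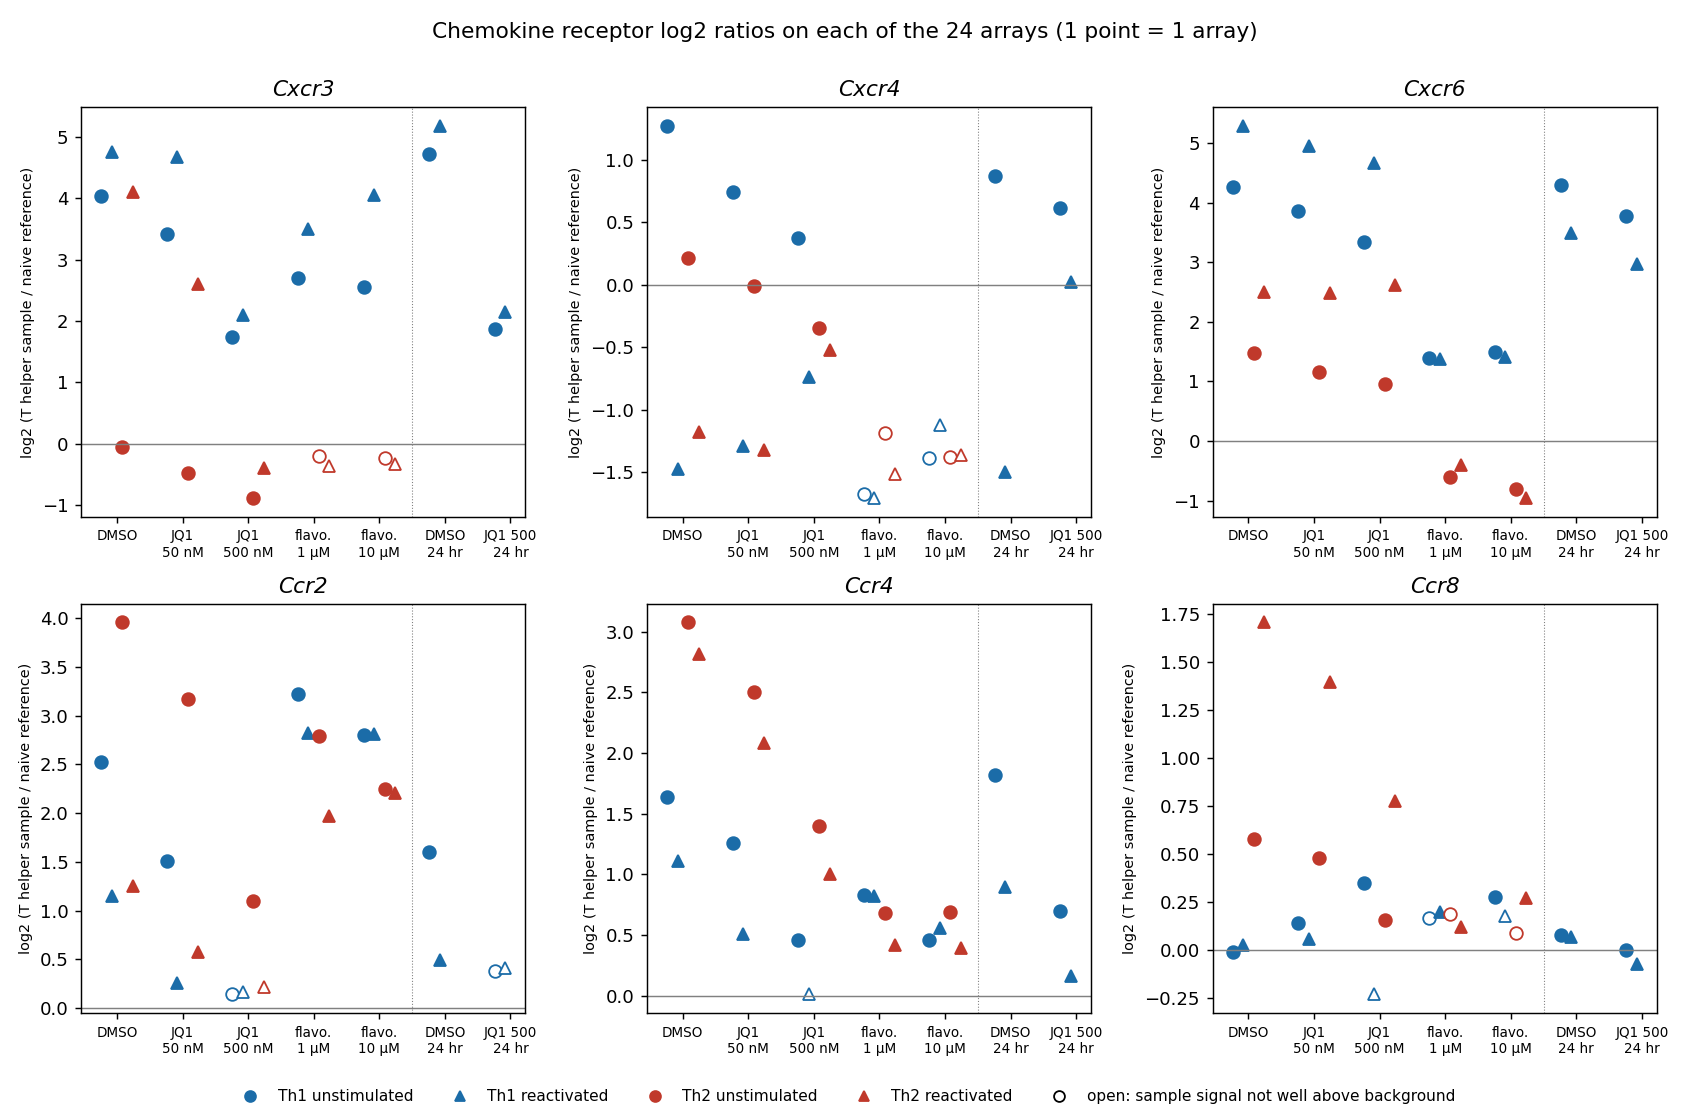
Log2 ratio of sample over naive CD4+ T cells (vertical axis) for each of the 24 arrays, with 1 panel per receptor and its own vertical range. The horizontal axis gives the treatment, with the 24 hr arrays at the right. Colours mark Th1 and Th2 cells, and circles and triangles mark unstimulated and reactivated cells. Open symbols mark arrays on which the receptor was not above background. Cxcr3 and Cxcr6 lie higher in Th1 than in Th2 cells, and Cxcr4 is not above background on any flavopiridol array.

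Th1 cells carried far more Cxcr3 and Cxcr6 RNA than Th2 cells, and Th2 cells carried more Ccr4. Cxcr3 stood at 4.04 in unstimulated and 4.75 in reactivated Th1 cells with DMSO at 6 hr, against -0.06 and 4.11 in Th2 cells. The unstimulated Th2 cells were thus at the naive level and the reactivated ones close to Th1 cells. Over 10 matched conditions of treatment and state, Cxcr3 was higher in Th1 cells in 10 of 10, by 2.98 ± 0.31 (SE) on the log2 scale (95% interval 2.31 to 3.65, limma adjusted p = 2.34e-05). The single differences ran from 0.64, in reactivated cells with DMSO, to 4.38, in reactivated cells with 10 µM flavopiridol. Cxcr3 was not above background in Th2 cells in any of the 4 flavopiridol conditions, so that 4 of the 10 differences, and with them the mean and its interval, are not exact. As bounds, Th1 cells were at least 6.43-fold to at least 18.2-fold higher in these 4.

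Cxcr6 separated the cell types in every matched condition and with the smallest standard error of the 6 receptors. It stood at 4.26 and 5.29 in unstimulated and reactivated Th1 cells with DMSO, and at 1.47 and 2.50 in Th2 cells. The Th1 excess was 2.37 ± 0.10 (SE; 95% interval 2.14 to 2.59, limma adjusted p = 1.67e-08) and ran from 1.79 to 2.80 over the 10 conditions. In the pair of DMSO conditions, measured within 1 slide, it was 2.80 in both states.

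Ccr4 was higher in Th2 cells without drug, while under flavopiridol its levels in both cell types lay close together. The test of that change between cell types was not called (10 µM, adjusted p = 0.179). With DMSO it stood at 1.64 and 1.11 in unstimulated and reactivated Th1 cells, against 3.08 and 2.82 in Th2 cells. Th1 cells were lower by -1.44 and -1.71 in these 2 conditions, whereas the 4 flavopiridol differences lay between -0.24 and 0.39. Over all 10 conditions the difference was -0.74 ± 0.22 (SE; adjusted p = 0.0204, lower in Th1 in 7 of 10). Without the DMSO conditions it was -0.53 and was no longer called (adjusted p = 0.0893), nor was it with arrays centred on spike-in RNA (-0.61, adjusted p = 0.0808), and without the flavopiridol conditions it was -1.31 (adjusted p = 0.000164).

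Ccr8, whose probe was dim, was near the naive level on every Th1 array, from -0.23 to 0.35. In Th2 cells it stood at 0.58 without and 1.71 with reactivation under DMSO, so that the highest Ccr8 array of the series was the reactivated Th2 DMSO array. Over the 10 conditions Ccr8 differed by -0.46 (adjusted p = 0.0718) and Ccr2 by -0.21 (adjusted p = 0.518), and neither was called. Without the flavopiridol conditions Ccr8 was lower in Th1 cells by -0.80 (adjusted p = 0.0284) and Ccr2 by -0.76 (adjusted p = 0.0362). Cxcr4 differed by 0.16 (adjusted p = 0.416). In all, 2 of 6 receptors were higher and 1 lower in Th1 cells, where 35.6% of all genes tested were called in either direction. The B cell markers were also higher in Th2 arrays, as given above, and their part in the Th2 excess of Ccr4 was not tested. The 2 CD8 T cell markers averaged 7.05 to 7.86 on Th1 and 6.42 to 6.77 on Th2 DMSO arrays (log2 Cy3), and their part in the Th1 excess of Cxcr3 and Cxcr6 was not tested.

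**Figure D2:**
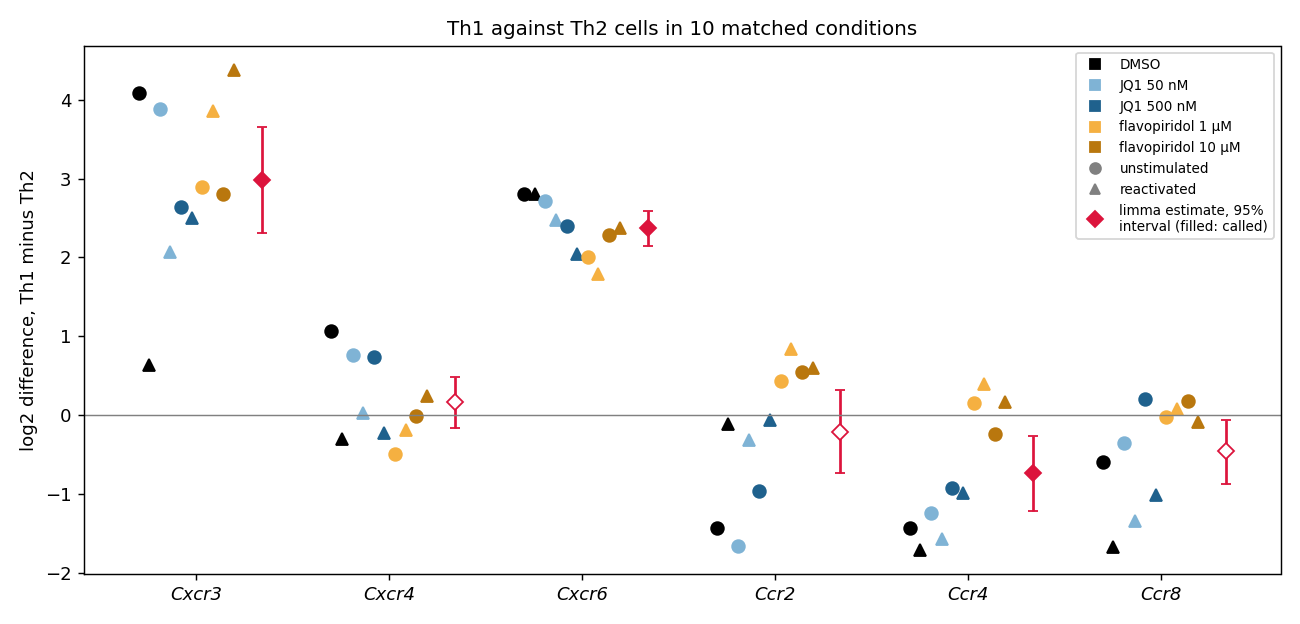
Th1 minus Th2 difference in log2 ratio (axis in log2 units) for each receptor, with 1 point for each of the 10 matched conditions of treatment and state and the limma estimate with its 95% interval. All 10 points of Cxcr3 and of Cxcr6 are above 0, while the points of Ccr4 run from -1.71 to 0.39.

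Reactivation without drug lowered Cxcr4, Ccr2 and Ccr4. Cxcr4 moved from 1.27 to -1.48 in Th1 cells at 6 hr, from 0.87 to -1.50 in Th1 cells at 24 hr, and from 0.21 to -1.18 in Th2 cells. All 3 unstimulated arrays were above the naive level and all 3 reactivated arrays below it. The fall was -2.17 ± 0.26 (SE) on the log2 scale over the 3 pairs (95% interval -2.79 to -1.55, adjusted p = 0.00103). With this comparison 50.9% of all genes tested were called, so that 3 of 6 receptors is close to the share among all genes. The mean log2 Cy3 signal of the 6 CD4 T cell markers was 14.1 to 14.35 on the unstimulated and 13.03 to 13.64 on the reactivated DMSO arrays, and that of the 4 NK cell markers 6.11 to 6.64 and 6.96 to 7.13. Among the NK cell markers Eomes was the one that was higher in all 3 pairs, while the other 3 were above background on at most 1 array, and the part of either in the changes on reactivation was not tested.

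Ccr2 moved from 2.52 to 1.15, from 1.60 to 0.49 and from 3.96 to 1.25 in the same 3 pairs. The highest Ccr2 level was that of unstimulated Th2 cells. The change was -1.73 ± 0.30 (SE; adjusted p = 0.00419). Ccr4 fell by a smaller step, -0.57 ± 0.16 (SE; adjusted p = 0.0248), with pairs from -0.92 to -0.26. This call was lost without the Th1 24 hr pair (-0.40, adjusted p = 0.146), without the Th1 6 hr pair (-0.59, adjusted p = 0.0763) and with arrays centred on spike-in RNA (-0.33, adjusted p = 0.184).

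Cxcr3 was higher in the reactivated array of each pair, by 0.71 and 0.46 in Th1 cells at 6 and 24 hr and by 4.17 in Th2 cells. Its mean change of 1.78 ± 0.68 (SE) was not called (adjusted p = 0.0706), and the Th2 pair lay far from the other pairs. Without the Th2 pair it was 0.59 and called (adjusted p = 0.0219), and without the Th1 24 hr pair it was 2.44 and called (adjusted p = 0.0352). Calls were also made with median centring (1.69, adjusted p = 0.0455), spike-in centring (1.96, adjusted p = 0.0073) and the spike-in shift (2.0, adjusted p = 0.0365). The reactivated Th2 array that held Cxcr3 at 4.11 also held Th1 genes, with Tbx21, which encodes T-bet, at 4.64 and Ifng at 6.20. In the unstimulated Th2 array these were at -0.02 and 0.65. The other 3 of the 5 Th1 markers were not higher in the same way, with Il12rb2 at -0.28 and -0.20, Stat4 at -0.58 and -2.56 and Il18r1 at -2.74 and -3.73 in unstimulated and reactivated cells, and the part of these genes in the Cxcr3 value was not tested.

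Cxcr6 and Ccr8 were not called over the 3 pairs. Cxcr6 was higher after reactivation by 1.03 in both the Th1 6 hr and the Th2 pair and lower by -0.81 in the Th1 24 hr pair. Its mean was 0.42 (adjusted p = 0.386), and without the Th1 24 hr pair it was 1.03 and called (adjusted p = 0.00653). Ccr8 differed by 0.38 (adjusted p = 0.232), of which the Th2 pair gave 1.12.

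JQ1 at 500 nM lowered Cxcr3, Ccr2, Ccr4 and Cxcr6, that is 4 of 6 receptors, and raised none. Among all genes tested 47.6% were called in either direction. Ccr4 gave the most even response. It moved from 1.64 to 0.46 and from 1.11 to 0.01 in unstimulated and reactivated Th1 cells, and from 3.08 to 1.40 and from 2.82 to 1.00 in Th2 cells. The fall was -1.44 ± 0.12 (SE; 95% interval -1.72 to -1.17, adjusted p = 1.11e-05), and each of the 4 contexts was lower by more than 1. Ccr4 was not above background in reactivated Th1 cells with JQ1, and there DMSO cells were at least 2.03-fold higher.

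Cxcr3 fell in all 4 contexts by unequal amounts. Under 500 nM JQ1 it stood at 1.74 and 2.10 in unstimulated and reactivated Th1 cells, still above the naive level, and at -0.89 and -0.40 in Th2 cells, below it. The 4 differences were -2.29, -2.65, -0.83 and -4.51, with a mean of -2.57 ± 0.44 (SE; adjusted p = 0.000842). The small difference belonged to the unstimulated Th2 cells, where Cxcr3 was at the naive level without drug, and the large one to the reactivated Th2 cells. In that reactivated Th2 pair Tbx21 also went from 4.64 to 0.94 and Ifng from 6.20 to 4.79, and their part in the Cxcr3 difference was not tested.

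Ccr2 fell to the background in Th1 cells. It moved from 2.52 to 0.14 and from 1.15 to 0.16 in unstimulated and reactivated Th1 cells, and from 3.96 to 1.1 and from 1.25 to 0.22 in Th2 cells. The 500 nM arrays of both Th1 states and of reactivated Th2 cells were not above background for Ccr2. The fall was -1.81 ± 0.30 (SE; adjusted p = 0.000619), and as a bound Th1 cells with DMSO were at least 2.63-fold higher than Th1 cells with JQ1. The unstimulated Th1 cells alone were at least 3.84-fold higher with DMSO. Within Th1 cells, where DMSO and JQ1 shared a slide, the falls of Cxcr3 (-2.47, adjusted p = 0.00308), Ccr2 (-1.68, adjusted p = 0.0157), Ccr4 (-1.14, adjusted p = 0.00505) and Cxcr6 (-0.78, adjusted p = 0.0125) were each called. The median of all genes was -0.07 in the fit of all 4 contexts, -0.28 with arrays centred on their median and -0.50 with arrays centred on spike-in RNA, and the 4 falls stayed called under both. The mean log2 Cy3 signal of the 5 B cell markers was 7.45 to 8.82 on DMSO and 6.78 to 8.06 on 500 nM JQ1 arrays, and their part in these falls was not tested.

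Cxcr6 fell by less, -0.49 ± 0.14 (SE; adjusted p = 0.0126). It was lower by -0.92, -0.64 and -0.52 in 3 contexts and was 0.12 higher in reactivated Th2 cells, where it stood at 2.62. Without the unstimulated Th1 DMSO array the difference was -0.39 and was no longer called (adjusted p = 0.0505), and the scanner software's log ratio gave -0.29 (adjusted p = 0.157). Cxcr4 had no common direction, with differences of -0.89 and -0.56 in unstimulated Th1 and Th2 cells and 0.73 and 0.67 in reactivated ones, and a mean of -0.01 (95% interval -0.55 to 0.52). Ccr8 differed by -0.31 (adjusted p = 0.129) and was called without the unstimulated Th1 array of DMSO (-0.46, adjusted p = 0.0356) or of 500 nM JQ1 (-0.50, adjusted p = 0.00819).

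**Figure D3:**
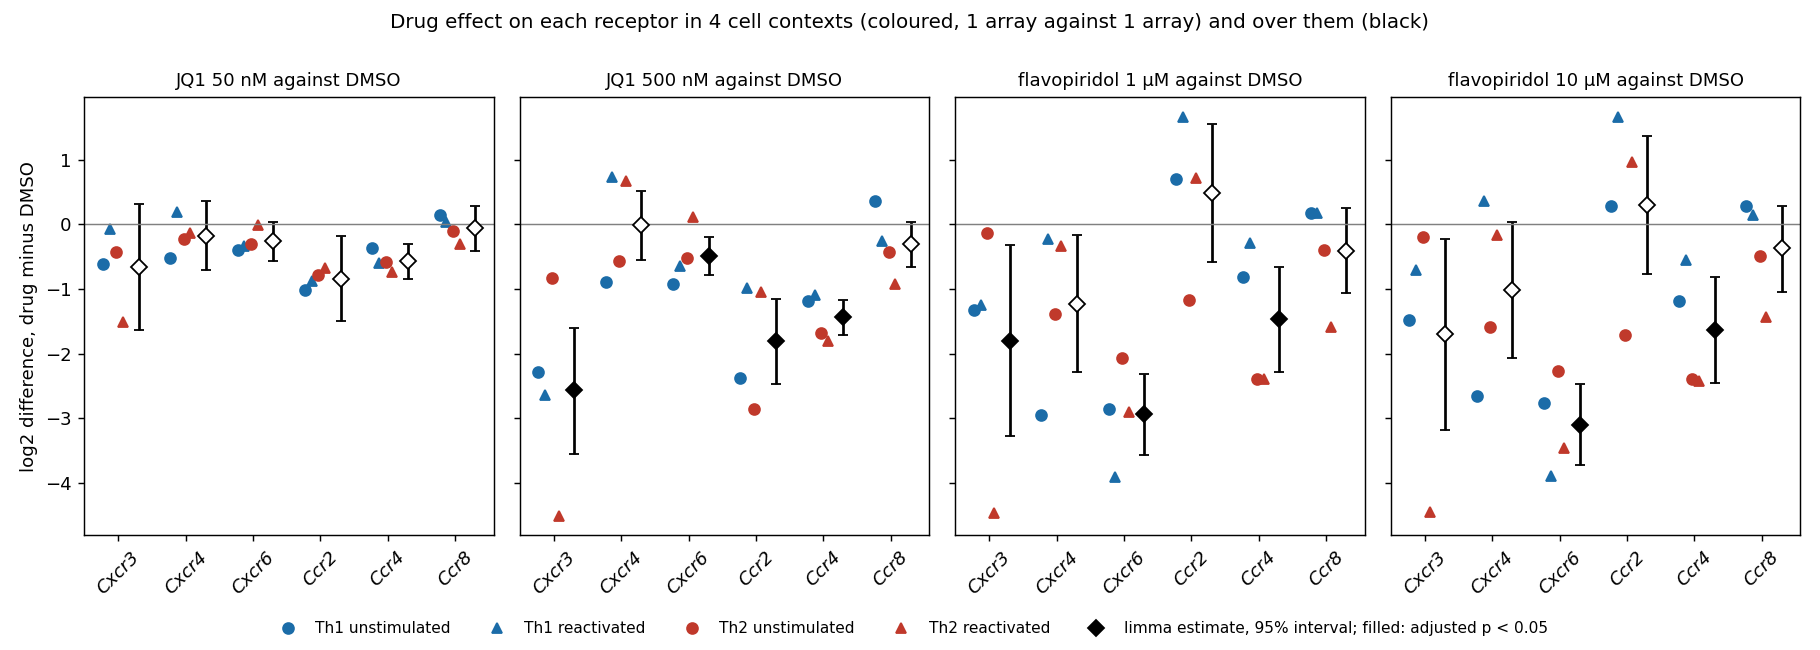
Difference in log2 ratio from DMSO (log2 units) for each receptor under JQ1 at 50 and 500 nM and flavopiridol at 1 and 10 µM, with 1 point per context and the limma estimate with its 95% interval, filled where called. The 500 nM JQ1 estimates of Cxcr3, Ccr2, Ccr4 and Cxcr6 and the Cxcr6 and Ccr4 estimates of both flavopiridol doses lie below 0 and are filled.

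In the fit of DMSO with both JQ1 doses, the lower dose of 50 nM called none of the 6 receptors. Ccr4 was lower in 4 of 4 contexts by -0.57 (limma adjusted p = 0.0839), as were Ccr2 by -0.84 (adjusted p = 0.262), Cxcr3 by -0.66 (adjusted p = 0.578) and Cxcr6 by -0.26 (adjusted p = 0.446). Over all genes limma called 0.341%, while 1701 of 12910 genes had an unadjusted p below 0.05, among them Ccr4 at 0.000801. With the DMSO and 50 nM arrays alone, limma called Ccr2 (-0.84, adjusted p = 0.0012) and Ccr4 (-0.57, adjusted p = 0.00409). There 359 genes were called higher and 588 lower, of 12724. In the deposited log2 table Ccr4 was called (-0.71, adjusted p = 0.0428). The doses themselves differed for 3 receptors, with 31.3% of all genes called. Cxcr3 was lower at 500 than at 50 nM by -1.91 ± 0.44 (SE; adjusted p = 0.00823) and Ccr4 by -0.87 ± 0.12 (SE; adjusted p = 0.000596), each compared within slides. Ccr2 gave a fitted difference of -0.98 ± 0.30 (SE; adjusted p = 0.029), with 3 of the 4 arrays of 500 nM not above background, and in Th1 cells the 50 nM arrays were at least 1.54-fold higher.

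The dose call of Ccr2 depended on single arrays, and it was lost without the unstimulated Th1 array of 50 nM (adjusted p = 0.0833) or 500 nM (adjusted p = 0.09), the unstimulated Th2 array of 50 nM (-0.79, adjusted p = 0.109) or 500 nM (-0.62, adjusted p = 0.0634), or the reactivated Th2 array of 50 nM (adjusted p = 0.058). Cxcr6 differed between the doses by -0.23 (adjusted p = 0.234) and was called without the reactivated Th2 array of 500 nM (-0.39, adjusted p = 0.0239). It was also called with median centring (-0.50, adjusted p = 0.0218) and spike-in centring (-0.81, adjusted p = 0.0112). Under these the median of all genes was -0.22 and -0.53. Ccr8 differed by -0.26 and was called without the unstimulated Th1 array of 500 nM (-0.45, adjusted p = 0.0226).

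At 24 hr the Th1 cells were sampled once per condition, and no test was run. Cxcr3 stood at 4.72 with DMSO and 1.87 with 500 nM JQ1 in unstimulated cells, and at 5.18 and 2.14 in reactivated cells. It was the single receptor of the 6 that was at least 2-fold lower in both states, with differences of -2.84 and -3.04. Among all genes compared 5.14% were at least 2-fold lower in unstimulated and 4.39% in reactivated cells. Ccr4 was lower by -1.12 and -0.75 and Cxcr6 by -0.52 in both states, each in the same direction as in Th1 cells at 6 hr. Cxcr4 was lower by -0.26 in unstimulated and higher by 1.52 in reactivated cells. Ccr2 was not above background with JQ1, and unstimulated DMSO cells were at least 2.22-fold higher.

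Flavopiridol lowered Cxcr6 in all 4 contexts at both doses. At 10 µM it moved from 4.26 to 1.49 and from 5.29 to 1.41 in unstimulated and reactivated Th1 cells, and from 1.47 to -0.80 and from 2.50 to -0.96 in Th2 cells. Each Th2 array ended below the naive level. The fall was -3.10 ± 0.28 (SE; 95% interval -3.73 to -2.47, adjusted p = 6.42e-05), and at 1 µM it was -2.94 ± 0.28 (SE; adjusted p = 5.63e-05). At 10 µM 2 of 6 receptors were called, against 48.9% of all genes, and at 1 µM 3 of 6, against 51.7%.

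Ccr4 was the other receptor called at both doses. At 10 µM it stood at 0.46 and 0.56 in unstimulated and reactivated Th1 cells and at 0.69 and 0.39 in Th2 cells, a narrow range. It fell by -1.64 ± 0.36 (SE; adjusted p = 0.00538), from -0.55 in reactivated Th1 cells to -2.43 in reactivated Th2 cells. At 1 µM the fall was -1.47 ± 0.36 (SE; adjusted p = 0.00827). In Th1 cells alone it was -0.87 at 10 µM (adjusted p = 0.0434) and -0.55 at 1 µM, which was not called (adjusted p = 0.117).

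Cxcr3 was lower with flavopiridol in all 4 contexts, but the size rested on reactivated Th2 cells. At 10 µM it stood at 2.56 and 4.05 in Th1 cells and at -0.24 and -0.34 in Th2 cells, and the latter were not above background. The differences were -1.48, -0.70, -0.19 and -4.45, and reactivated Th2 cells with DMSO were at least 21.4-fold higher than with 10 µM. The mean of -1.70 ± 0.65 (SE) was not called at 10 µM (adjusted p = 0.057). It was called without the unstimulated (-2.23, adjusted p = 0.0219) or the reactivated Th2 DMSO array (-0.80, adjusted p = 0.0297), and in Th1 cells alone (-1.09, adjusted p = 0.0348). Calls were also made with median centring (-2.54), spike-in centring (-3.17), the spike-in shift (-2.41), Cy3 alone (-1.90) and the deposited log2 table (-2.03).

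At 1 µM the Cxcr3 difference of -1.80 ± 0.65 (SE) was called (adjusted p = 0.0449). That call was lost without the unstimulated or reactivated Th1 DMSO array (adjusted p = 0.0677 and 0.0527), the unstimulated or reactivated Th1 array of 1 µM (adjusted p = 0.0761 and 0.0955), or the unstimulated or reactivated Th2 array of 1 µM (adjusted p = 0.0503 and 0.143). It was also lost with slide as a random block (adjusted p = 0.149).

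Cxcr4 was not above background on any of the 8 flavopiridol arrays. Averaged over the 4 contexts, DMSO cells were at least 1.88-fold higher than 10 µM and at least 2.06-fold higher than 1 µM cells. In unstimulated Th1 cells the bound was 4.92-fold at 10 µM, and in unstimulated Th2 cells 2.66-fold. Reactivated cells with DMSO were already about as low as the flavopiridol arrays, and there the difference could not be measured at this signal. The fitted differences of -1.02 at 10 µM (adjusted p = 0.1) and -1.23 at 1 µM (adjusted p = 0.0525) were not called. At 10 µM other scalings gave larger differences that were called, from -1.72 with the spike-in shift and -2.0 with median centring to -2.63 with spike-in centring, and the scanner software's log ratio gave -4.16. Without the reactivated Th1 DMSO array both doses were called (adjusted p = 0.0356 and 0.0193), and without the reactivated Th2 DMSO array the 1 µM dose was (adjusted p = 0.0308).

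Ccr2 had no common direction with flavopiridol. At 10 µM it was higher by 0.29 and 1.67 in unstimulated and reactivated Th1 cells and by 0.96 in reactivated Th2 cells, and lower by -1.71 in unstimulated Th2 cells. All 4 flavopiridol levels lay between 2.21 and 2.81, above background. The mean of 0.30 was not called (adjusted p = 0.623), and it changed sign when arrays were centred on their median (-0.15) or on the spike-in RNA (-0.77). Without the unstimulated Th2 DMSO array Ccr2 was higher by 0.91 at 10 µM (adjusted p = 0.0205) and by 1.09 at 1 µM (adjusted p = 0.00882). Ccr8 differed by -0.37 at 10 µM (adjusted p = 0.319) and by -0.41 at 1 µM (adjusted p = 0.271).

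The median of all genes under 10 µM flavopiridol was -0.22 here, -1.06 with arrays centred on their median, and -1.68 with arrays centred on spike-in RNA. Set against those medians, Cxcr6 (-4.21 and -4.84) and Ccr4 (-1.52 and -2.14) stayed below, Ccr4 by less. The 5 B cell markers averaged 6.64 to 7.85 on the 10 µM arrays, against 7.45 to 8.82 on DMSO arrays, and the 2 CD8 T cell markers 6.97 to 8.27 against 6.42 to 7.86, and the part of either in these values was not tested. Between 1 and 10 µM none of the 6 receptors was called by limma, with 1.88% of all genes called and 1425 of 12430 genes at an unadjusted p below 0.05. The difference of Cxcr6 was -0.16, with a 95% interval of -0.79 to 0.47, and that of Cxcr3 0.10, with an interval of -1.38 to 1.58.

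The 2 drugs differed in Cxcr6, Ccr2 and Cxcr4. Compared directly at 10 µM flavopiridol and 500 nM JQ1, doses that are not matched and lie on different slides in all 4 contexts, 3 of 6 receptors were called, against 56.8% of all genes. Cxcr6 was lower with flavopiridol by -2.61 ± 0.30 (SE; adjusted p = 3.44e-06), and Ccr2 was higher by 2.12 ± 0.46 (SE; adjusted p = 0.00108), in 4 of 4 contexts with differences from 1.15 to 2.67. As 3 of the 4 JQ1 arrays were not above background for Ccr2, these differences are not exact there. On the Cy3 scale, as a bound, Th1 cells with flavopiridol were at least 4.51-fold higher than with JQ1. Ccr4 differed by -0.19 (adjusted p = 0.639), and Cxcr3 by 0.87 (95% interval -0.35 to 2.08, adjusted p = 0.211). In Th2 cells Cxcr3 was not above background with flavopiridol, so its direction there is not determined.

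Cxcr4, not above background on the flavopiridol arrays, was lower there by a fitted -1.0 ± 0.40 (SE; adjusted p = 0.0434), and as a bound JQ1 cells were at least 1.97-fold higher over the 4 contexts. The call was lost without the unstimulated Th1 array of JQ1 (adjusted p = 0.084) or flavopiridol (adjusted p = 0.166), the reactivated Th1 array of JQ1 (adjusted p = 0.0852), the reactivated Th2 array of JQ1 (adjusted p = 0.102) or the unstimulated Th2 array of flavopiridol (adjusted p = 0.112). It was also lost with slide as a random block (-1.03, adjusted p = 0.0562).

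The JQ1 effect on Cxcr4 differed between the states. For Cxcr4 the effect of 500 nM JQ1 was higher in reactivated than in unstimulated cells by 1.43 ± 0.17 (SE; 95% interval 1.04 to 1.81, adjusted p = 0.00213), with 1.63 in Th1 and 1.22 in Th2 cells. With JQ1 the fall of Cxcr4 on reactivation thus shrank, from 1.27 and -1.48 with DMSO to 0.37 and -0.74 with JQ1 in Th1 cells. In all 2 of 6 receptors were called, against 10.1% of all genes. The other was Ccr2 (1.61 ± 0.22, SE; adjusted p = 0.00318), but with 3 of its 4 JQ1 arrays not above background, both Th1 arrays among them, that value largely restates its fall on reactivation with DMSO and does not show that the JQ1 effect depended on state. With arrays shifted by the spike-in RNA, which moved the median of all genes to -1.18, the differences were 0.26 for Cxcr4 and 0.44 for Ccr2 and were not called. With arrays centred on the spike-in RNA Cxcr4 was not called either (0.48, adjusted p = 0.154).

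Cxcr3 gave -2.02 ± 0.58 (SE; adjusted p = 0.0571), of which Th1 cells gave -0.35 and Th2 cells -3.68. In Th2 cells Cxcr3 rose on reactivation by 4.17 with DMSO and by 0.49 with 500 nM JQ1. Unstimulated Th2 cells were at the naive level already without drug (-0.06). The Cxcr3 difference was called with median centring (-2.11), spike-in centring (-2.95) and the spike-in shift (-3.18). It was also called when only genes above background on all arrays entered (-2.02, adjusted p = 0.0428). It was called without the reactivated Th1 DMSO array (-2.84, adjusted p = 0.0142), the unstimulated Th1 JQ1 array (-2.69, adjusted p = 0.0229) or the reactivated Th1 JQ1 array (-2.59, adjusted p = 0.0429). For flavopiridol at 10 µM, 1 of 6 receptors was called, against 15.8% of all genes. Slide as a random block added Ccr2 (2.03, adjusted p = 0.00631) and Cxcr6 (-1.15, adjusted p = 0.0126). Without the reactivated Th1 DMSO array the Cxcr3 difference went from -1.74 to -3.49. Without the unstimulated Th1 DMSO array that of Ccr2 went from 2.03 to 2.99. The 1 receptor called without the slide block was Cxcr4, with a difference of 2.22 ± 0.48 (SE; adjusted p = 0.0244). However, all 4 flavopiridol arrays behind it were not above background. The value thus restates the fall of Cxcr4 on reactivation with DMSO and does not show that the flavopiridol effect depended on state. The call was lost without any one of those 4 arrays (unstimulated and reactivated Th1 and Th2 cells at 10 µM, adjusted p = 0.0806 to 0.11).

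No receptor's drug effect was called as different between Th1 and Th2 cells by limma. For JQ1 0% of all genes were called, with 906 of 12910 at an unadjusted p below 0.05. Ccr4 among them differed by 0.61 (unadjusted p = 0.0056, adjusted p = 0.437), being lowered less in Th1 cells. In reactivated Th1 cells with JQ1 Ccr4 was not above background, so its fall there is a bound and this difference is not exact. For 10 µM flavopiridol 0.0161% of all genes were called, with 1609 of 12430 at an unadjusted p below 0.05. Ccr4 differed by 1.54 ± 0.26 (SE; unadjusted p = 0.00103, adjusted p = 0.179), again lowered less in Th1 cells. At 10 µM its levels lay between 0.39 and 0.69 in both cell types. With DMSO Th1 cells differed from Th2 cells by -1.44 and -1.71, and the value largely restates that difference.

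**Figure D4:**
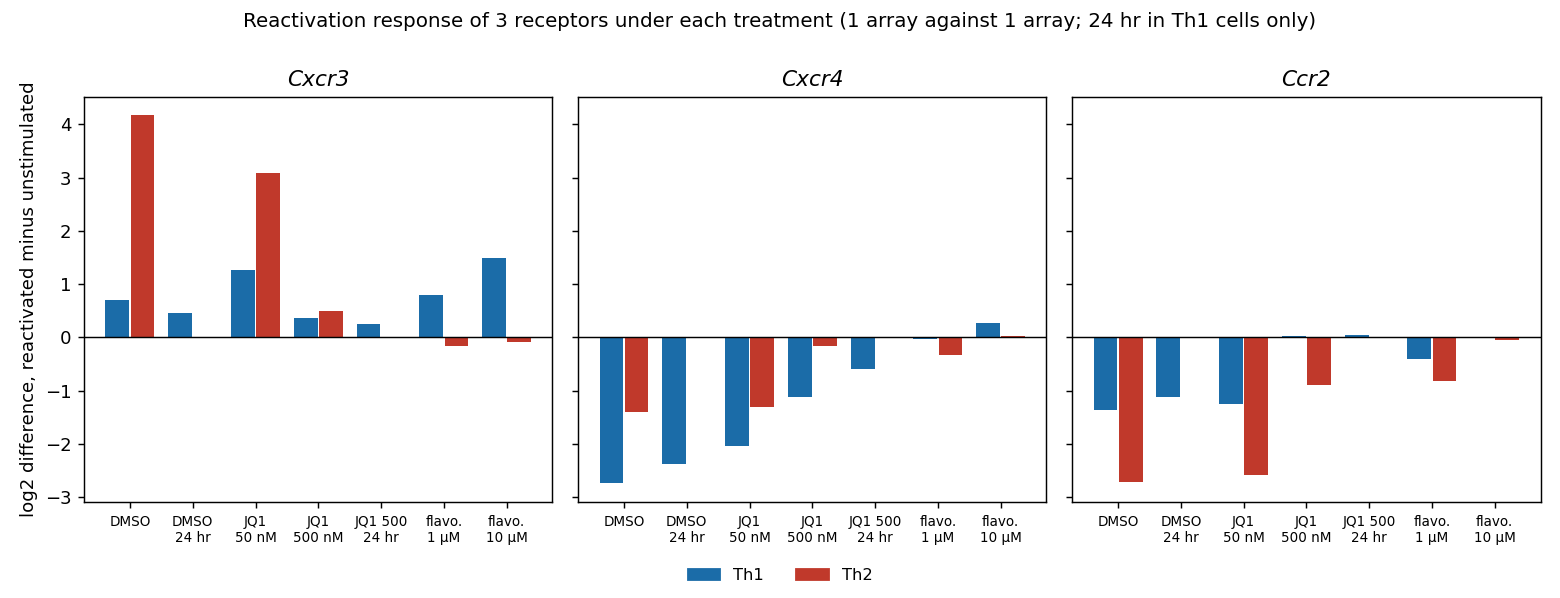
Reactivated minus unstimulated difference in log2 ratio (vertical axis, bars starting at 0) of Cxcr3, Cxcr4 and Ccr2 under each treatment in Th1 and Th2 cells, with 1 pair of arrays per bar. The Cxcr4 and Ccr2 bars point down with DMSO and are shorter with 500 nM JQ1, where Ccr2 was not above background in Th1 cells, and the tall Cxcr3 bar of Th2 cells with DMSO (4.17) is absent with flavopiridol.

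Other chemokine receptors were called in the same fits. Of 18 on the array, 10 entered the reactivation fit, with 3 higher and 4 lower, where 50.9% of all genes were called, and a median of -0.16 against -0.05 over all genes. Ccr7, the lymph node homing receptor, fell by -2.19 and Ccr6 by -1.28, while Cxcr5, the receptor for B cell follicles, rose by 1.07. With 500 nM JQ1 1 of 10 was higher and 4 were lower, against 47.6% of all genes called, with a median of -0.29 against -0.07. Among those that fell were Ccr6 (-1.46), Cxcr5 (-0.92) and the atypical receptor Ccrl2 (-0.61). With 10 µM flavopiridol 2 of 8 were higher and 3 lower, against 48.9% of all genes called, and Ccr7 fell by -4.21. Between the cell types 4 of 10 were higher and 1 lower in Th1 cells, against 35.6% of all genes called.

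Of the 11 listed ligands of the 6 receptors on the array, 5 entered the reactivation fit and 4 rose, namely the Ccr4 ligand Ccl22 (1.31), the Cxcr3 ligand Cxcl10 (1.20), the Ccr8 ligand Ccl1 (0.72) and the Cxcr6 ligand Cxcl16 (0.55). Their median was 0.72 against -0.05 over all genes, of which 50.9% were called. Cxcl10 was the 1 ligand of 8 called with 500 nM JQ1, where it fell by -1.13, against 47.6% of all genes called. With 10 µM flavopiridol 2 of 5 ligands were called, against 48.9% of all genes, and Cxcl10 fell by -3.30 and Ccl1 by -2.0. Among 29 of 30 genes of receptor signalling, reactivation raised 4 and lowered 15 (median -0.67 against -0.05), against the same 50.9% called. Rgs16 and Rgs1, which speed up the turning off of G proteins, rose by 3.73 and 2.49, and the beta-arrestin gene Arrb1 fell by -3.60. With 500 nM JQ1 3 were higher and 14 lower (median -0.23 against -0.07, with 47.6% of all genes called), among them Rgs1 at -1.04 and the integrin gene Itgb1 at -1.10. With 10 µM flavopiridol 9 were higher and 9 lower, with a median of 0.09 against -0.22 and 48.9% of all genes called, and Rgs1 fell by -4.75 and Rgs16 by -4.01.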

How the data were processed

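Total RNA of each sample was labelled with Cy3 and that of naive CD4+ T cells with Cy5 and hybridised to a 2-colour Agilent array, with spike-in RNA in both channels. The authors deposited scanner output (Agilent Feature Extraction 10.7.1.1, per the file headers) with spot intensities and log10 ratios, and a table of log2 values normalized by them. Here the deposited median intensities were background-corrected with normexp (offset 50), outlier-flagged spots were left out, and log2 Cy3/Cy5 ratios were loess-normalized within arrays with limma 3.58.1 in R 4.3.3. The deposited log10 ratios and log2 table served as alternatives (r of the table with the ratios used 0.9809 to 0.9959). A gene was represented by its brightest probe and entered a fit if the scanner software called it well above background in Cy3 on 3 or more of the arrays fitted. lmFit and eBayes were run over all genes with context, pair or matched condition as a block, and p-values were adjusted by Benjamini-Hochberg. Precision was limited by having 24 arrays with 1 in each condition.

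A receptor not above background on all arrays of a group was given a bound: the brighter mean over the higher of its own signal and the lowest signal above background. At 24 hr genes past 2-fold were counted without a test. Alternatives were other background corrections, scalings, probe choices, filters, blocks and left-out arrays. All 6 receptors were named, and of the lists of other chemokine receptors, ligands and signalling genes at most the 4 called genes with the largest change per comparison. For each receptor the 3 genes with the highest Pearson r over the 24 arrays were taken. Some of the genes these rules pick are not reported here. Receptors, lists and tests were chosen with earlier results of these data known. The fits were tested on simulated data. The study's methods applied fold thresholds and a rank-sum test. Upstream sequences came from RefSeq (GRCm38.p6, 6 of 6 receptors matched).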

Additional observations from a re-analysis of the deposited data

Results flagged for a closer look

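The fitted difference in drug effect between reactivated and unstimulated cells passed the threshold for 3 values, of which the first was measured above background on all arrays. For Cxcr4 the effect of 500 nM JQ1 was 1.43 higher (log2) in reactivated cells, and for Ccr2 it was 1.61 higher, with 3 of the 4 JQ1 arrays not above background for Ccr2. Both calls were lost with arrays shifted by spike-in RNA (0.26 for Cxcr4 and 0.44 for Ccr2), that of Cxcr4 also with arrays centred on it (0.48), and the Ccr2 difference was -0.12 with the scanner software's log ratio. For Cxcr4 the effect of 10 µM flavopiridol was 2.22 higher, with the flavopiridol arrays not above background. The Ccr2 value and this last one therefore largely restate the falls on reactivation with DMSO and do not show that the drug effect depended on state. The tests rest on 1 array per condition.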

How the results depend on the processing

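The labels give no replicate numbers, so no fit with a replicate block was made, and the pairs and contexts used as blocks match conditions. Over the 6 receptors and all comparisons and alternatives, 1455 values kept their side of the threshold and, where called, their direction, 56 lost the call and 64 gained it in the same direction. Of the 1455, 93 were not called under either setting and had the other sign. Another 2 changed sign with a call under one of both settings: Cxcr6 in the JQ1 effect by reactivation (0.46, and -0.70 with arrays shifted by spike-in RNA) and Ccr2 in the same comparison (1.61, and -0.12 with the scanner software's log ratio). The cause was not tested.

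Counts of receptors called changed as follows. Restriction to genes above background on all arrays, which lets fewer receptors enter, changed 4 to 2 for JQ1 at 500 nM against DMSO, 3 to 1 for 500 against 50 nM, 3 to 1 for flavopiridol against JQ1, 3 to 1 for Th1 against Th2, and 1 to 0 for flavopiridol by reactivation. Without the context block, 4 and 3 became 0 for JQ1 at 500 nM against DMSO and against 50 nM. For 50 nM JQ1 against DMSO, 0 became 1 in the authors' table and 2 with the arrays of those 2 treatments alone. For 10 µM flavopiridol, 2 became 4 (median centring), 5 (spike-in centring) and 4 (spike-in shift), and for 1 µM 3 became 5 with spike-in centring. For JQ1 by reactivation 2, both higher in reactivated cells, became 4 with spike-in centring, 4 with the spike-in shift and 1 with the scanner software's log ratio. With the spike-in shift both calls were lost, and the 4 called were lower: Cxcr3 (-3.18), Cxcr6 (-0.70), Ccr4 (-1.19) and Ccr8 (-1.73). With spike-in centring Cxcr3 (-2.95), Ccr4 (-0.68) and Ccr8 (-1.31) were lower, while Ccr2 kept its call and Cxcr4 lost it. For flavopiridol by reactivation 1 became 0 with spike-in centring, with the spike-in shift, with the software's log ratio and with 2 treatments alone, and 3 with slide as a random block. For flavopiridol by cell type 0 became 1 with the spike-in shift. Th1 against Th2 gave 5 in place of 3 without the flavopiridol conditions. At 24 hr 1 became 2 with the spike-in shift and with the software's log ratio. Leaving out 1 array or pair gave 2 to 4 receptors for reactivation, 4 to 5 for 500 nM JQ1, 0 to 0 for 50 nM, 2 to 4 for 500 against 50 nM, 2 to 4 for each flavopiridol dose, 2 to 3 for flavopiridol against JQ1, 2 to 3 for JQ1 by reactivation, 0 to 3 for flavopiridol by reactivation, and 3 to 3 for Th1 against Th2. The other causes were not tested.

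Over all genes, scaling moved the split of higher and lower calls. For 500 nM JQ1 it was 2283 and 3862, then 736 and 5825 (median centring), then 147 and 5025 (spike-in centring). For 10 µM flavopiridol it was 1910 and 4166, then 281 and 8331, then 19 and 11345. For JQ1 by reactivation it was 581 and 726, then 222 and 790, then 19 and 10680. For reactivation it was 2746 and 3637 and, with spike-in centring, 3496 and 2301. For 50 nM JQ1 33 and 11 became 359 and 588 with the arrays of those 2 treatments alone. Slide as a random block was not run for reactivation, since both arrays of each pair share a slide. Signal limits Ccr2 under 500 nM JQ1, Cxcr4 under flavopiridol, and Cxcr3 in Th2 cells under flavopiridol. It also limits Ccr4 in reactivated Th1 cells with 500 nM JQ1 at 6 hr, and Ccr8, whose dim probe was above background on 19 of the 24 arrays.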

Other observations

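The genes whose log2 ratios ran most like each receptor, by Pearson r over the 24 arrays and among 11814 genes, are given as a description. Every array was read against naive cells, but whether these were 1 pool of RNA was not given in the sources used here, and groups of arrays share slides. Cxcr3 ran most like Casp4 (0.942) and Insrr (0.929). Cxcr4 ran most like the Polycomb gene Cbx2 (0.913), followed by Syt11 and Slc46a3, and Cxcr6 most like Chsy1 (0.928), followed by Bhlhe40 and Prkar1a. Ccr2 was closest to Dlg3 (0.919), then Ube2e2 and Phc1, and Ccr4 to Kcnk6 (0.918), then Dnajc7 and Rasgrp3. Ccr8 was closest to Il5ra (0.863), the alpha chain of the IL-5 receptor, then Shtn1 and Dhrs3. Between the receptors themselves r was 0.71 for Cxcr3 and Cxcr6, 0.64 for Ccr4 and Ccr8, and -0.57 for Cxcr6 and Ccr2.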
